A study of Mus musculus with 6 samples.

Results

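The interferon-stimulated and antigen presentation genes are a set of 46 mouse genes, chosen by name for their known roles in interferon signalling, antiviral defence and peptide display on MHC class I. All 46 matched a row of the 41388 gene identifiers in the deposited count table, and 45 of them passed the filter on low counts (Oas1g did not). Transcripts were counted in whole liver. The mice were 6 weeks old, of both sexes, kept on strain C57BL x 129S6/SvEv and given rodent chow with 16 ppm copper. Wild type mice gave 3 libraries, and mice with both copies of Atp7b disrupted (Atp7b-/-) gave 3. Atp7b is the copper-transporting ATPase of hepatocytes that is mutated in Wilson disease. How the allele was made is not stated in the labels. Whole liver mixes hepatocytes with Kupffer cells, endothelial cells and other cells, so fewer cells of a type and less RNA per cell cannot be told apart. The comparison asks whether these genes differ between livers with and without Atp7b.

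Interferons signal through paired receptors and Janus kinases to transcription factors, among them Stat2 and Irf9, that act at the interferon-stimulated response element. A further DNA element of these pathways is the gamma-activated sequence. The genes switched on include RNA sensors, the Ifit, Oas and Mx antiviral proteins, the ubiquitin-like protein Isg15 and GTPases of the Gbp and Irg families. In antigen presentation, peptides cut by the proteasome are carried into the endoplasmic reticulum by the transporter formed by Tap1 and Tap2, and are loaded with the help of Tapbp (tapasin) onto class I heavy chains such as H2-K1 and H2-D1, which pair with B2m. In the liver these systems are known from viral hepatitis and from surveillance by resident macrophages.

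The libraries held 5919389 to 25973968 counts. One library of each genotype (wild type replicate 1, Atp7b-/- replicate 3) has paired-end reads. The other 4 have single-end reads. All reads are 54 bases long, and the labels do not say whether each library came from a separate animal. Mitochondrially encoded genes took 7.74% and 8.14% of the paired-end counts, 2.57% and 2.5% of those of the single-end wild type libraries and 4.15% and 4.09% of those of the single-end Atp7b-/- libraries. Their share was thus higher in Atp7b-/- libraries within each layout, and its part in the genotype results was not tested. Atp7b stood at 25.3, 85.2 and 59.7 CPM (the count scaled to the library's size after TMM normalization) in wild type replicates 1 to 3 and at 19.2, 13.8 and 13.3 CPM in Atp7b-/- replicates 1 to 3, so every library matched its genotype label in rank. The labelled sex did not hold for 2 libraries. Atp7b-/- replicate 3, labelled female, had 0.482 CPM of Xist, an RNA of female cells, and 295 CPM summed over the Y-linked genes Ddx3y, Eif2s3y, Kdm5d and Uty. Wild type replicate 3, labelled female, had 17.4 CPM of Xist and 59.5 CPM of those genes. A run without both libraries is given below for Tap1 alone, and its changes of the other genes are not reported here. Over all alternative runs some changes moved and crossed zero, as in Gbp7 (log2 -0.50 to 0.64) and Irf1 (-1.17 to 0.20). Both paired-end libraries had little Xist (1.01 and 0.482 CPM) and much Y-linked RNA (342 and 295 CPM), so the genotypes are alike in these genes within that layout. Within the single-end layout labelled sex follows genotype and the effects cannot be told apart. By RNA, wild type replicates 2 and 3 had Y-linked sums of 0.68 and 59.5 CPM, with Xist at 371 and 17.4 CPM. In Atp7b-/- replicates 1 and 2 these were 86.5 and 83.8 CPM, with Xist at 0.117 and 0.702 CPM. Sex by RNA thus does not follow the label in wild type replicate 3.

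Some promoters of the set carry a match to the element at which Stat2 and Irf9 act, and a few are printed to show what those genes share in sequence. RefSeq windows of 300 bases, 250 before to 50 after a start site (build GRCm38.p6), were found for 36 of the 46 genes. Its core, GAAA followed by any 2 bases and GAAA, searched on both strands, was in the windows of 16 of these 36 genes (44.4%), against 3.99% of 27025 genes in the table. The gamma-activated sequence TTCNNNGAA, the same on both strands, was in those of 9 of 36 (25%), against 9.55%. In the stretches below, written 5′ to 3′ on the strand of the gene and all upstream of the start, capitals mark the core or its reverse complement, with overlapping matches joined.
Isg15 (chr4:156200865-156200906, minus strand): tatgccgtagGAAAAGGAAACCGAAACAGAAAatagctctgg
Irgm1 (chr11:48871425-48871460, minus strand): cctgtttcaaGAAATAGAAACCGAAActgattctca
Ifit1 (chr19:34640794-34640823, plus strand): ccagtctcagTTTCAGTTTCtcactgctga
Ifit3 (chr19:34583397-34583426, plus strand): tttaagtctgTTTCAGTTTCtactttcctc
Gbp2 (chr3:142620594-142620623, plus strand): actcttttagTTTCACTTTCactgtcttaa
Igtp (chr11:58199512-58199541, plus strand): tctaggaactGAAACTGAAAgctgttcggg
B2m (chr2:122147538-122147567, plus strand): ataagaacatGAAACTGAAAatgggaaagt
The Isg15 stretch holds 3 overlapping matches and lies 78 to 57 bases before the start, and that of Irgm1 holds 2. The TTTCAGTTTC of Ifit1 and Ifit3 is the reverse complement of the GAAACTGAAA of Igtp and B2m.

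Of the 45 tested genes, Tap1 was higher in Atp7b-/- livers, none was lower, and 44 did not pass the test (edgeR's quasi-likelihood test with layout and genotype as terms, called at a Benjamini-Hochberg adjusted p under 0.05). Over all 12988 genes tested, 1.9% were called higher and 0.585% lower, so that 1 call among 45 is near the background. The median log2 fold change was -0.025 over the 45 genes and -0.0087 over all genes, and 20 of the 45 changes were positive and 25 negative. For 37 of the 45 genes the 95% interval of the change lay below a doubling in Atp7b-/- livers, and for 26 it lay between a halving and a doubling. The 8 genes for which the interval reached a doubling were Tap1, Mx2, Oasl1, Rsad2, Usp18, Isg20, Mx1 and Oas2, the last 7 of them without a call. Unadjusted p-values under 0.05 were found for 4 of the 45 genes (Tap1 and Mx2 with positive changes, Irf7 and Gbp2 with negative ones) and for 1889 of the 12988.

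**Figure D1:**
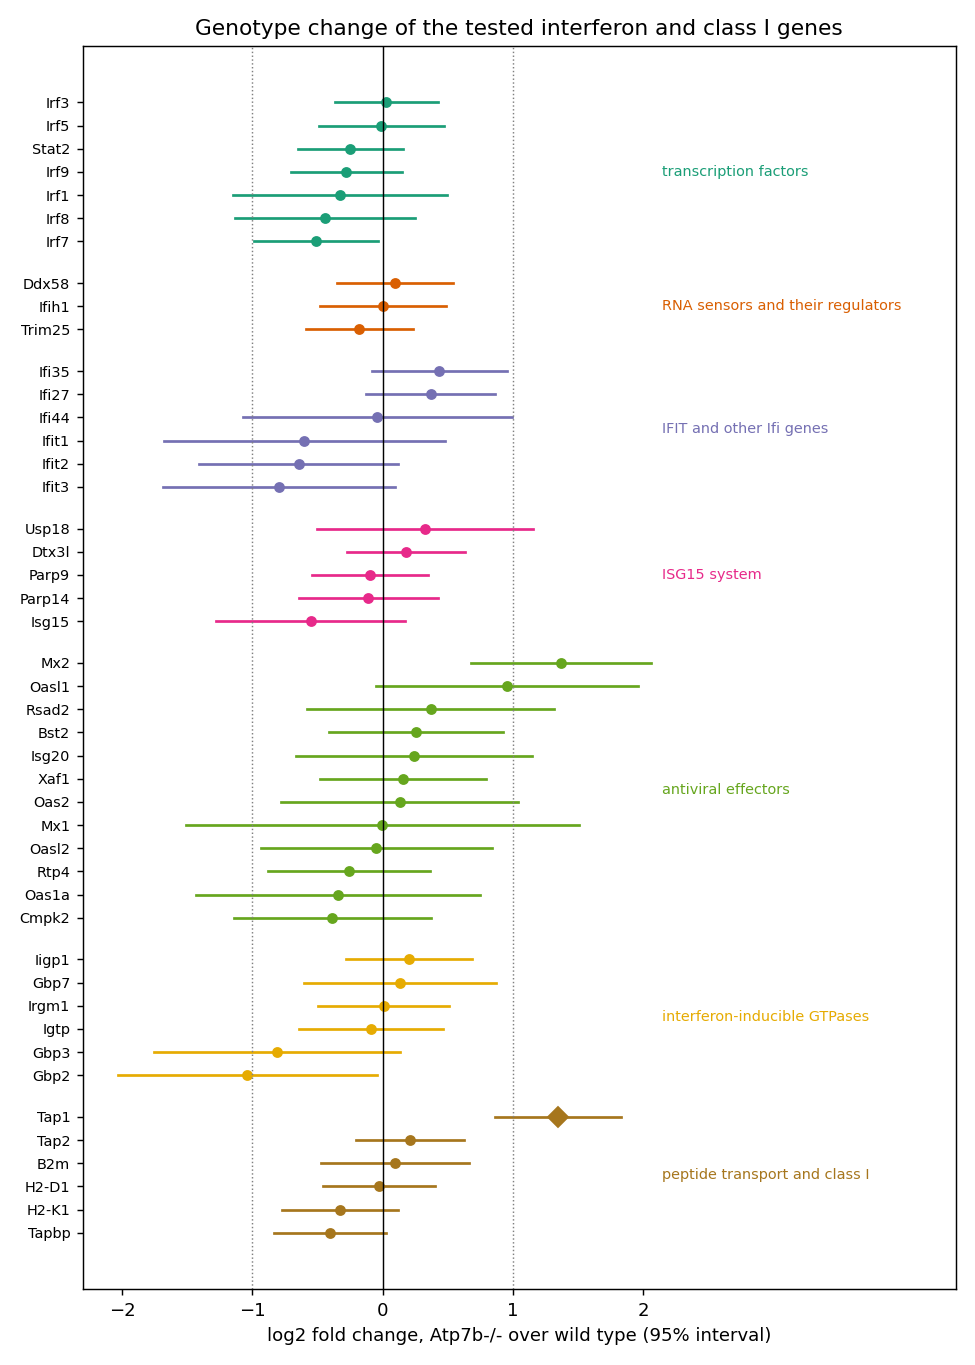
The log2 fold change of each tested gene (Atp7b-/- over wild type, 3 libraries each, horizontal axis) with its 95% interval as a line, grouped by role; the diamond marks the called gene and dotted lines mark a halving and a doubling. Tap1 stands at 1.35, most other points lie within 1 of zero, and 25 of 45 are negative.

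Transcripts of Tap1, a subunit of the peptide transporter, were higher in Atp7b-/- livers in both layouts. Tap1 (ENSMUSG00000037321, chromosome 17, 34187553 to 34197225, plus strand, GRCm38) stood at 15.9, 29.5 and 19.5 CPM in wild type replicates 1 to 3 and at 66.9, 55.7 and 42 CPM in Atp7b-/- replicates 1 to 3. All Atp7b-/- libraries lay above all wild type libraries, and in each genotype the paired-end library was the lowest. Wild type livers averaged 21.6 ± 7.06 CPM, and Atp7b-/- livers 54.9 ± 12.5 CPM (SD, n = 3 each). In the fit Tap1 rose 2.54-fold (log2 1.35, SE 0.21, edgeR adjusted p = 0.0121). The log2 ratio was 1.40 in the paired-end pair and 1.35 between the means of the single-end log2 values. Leaving out either paired-end library, wild type replicate 1 or Atp7b-/- replicate 3, ended the call (edgeR adjusted p = 0.098 and 0.101). With layout in the fit, either omission rests the genotype term on the single-end libraries, so these are not separate checks. Without both libraries whose labelled sex did not hold, the log2 change was 1.06. That run sets wild type replicate 2 alone against Atp7b-/- replicates 1 and 2, and no p-value is given for it. Over all alternatives the adjusted p ran from 3.8e-07 to 1 and the log2 change from 1.06 to 1.55.

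Psmb9, which is not in the set but was listed with the other pathway genes, is the neighbour of Tap1 on the opposite strand and encodes a catalytic subunit of the immunoproteasome, the form of the proteasome that trims peptides for class I. Psmb9 (ENSMUSG00000096727, chromosome 17, 34181987 to 34187764) stood at 11.9, 25.8 and 16.1 CPM in wild type replicates 1 to 3 and at 47.8, 51.6 and 26.4 CPM in Atp7b-/- replicates 1 to 3. The genotypes did not overlap, by a small margin (25.8 against 26.4 CPM). Psmb9 rose 2.31-fold (log2 1.21, SE 0.22, edgeR adjusted p = 0.022), with log2 ratios of 1.14 in the paired-end pair and 1.28 in the single-end libraries. Leaving out wild type replicate 1 or any 1 Atp7b-/- library ended its call (edgeR adjusted p = 0.0533 to 0.135). Of these runs, those without wild type replicate 1 and without Atp7b-/- replicate 3 rest on the same single-end contrast. The gene models share 212 exon bases on opposite strands, 3.9% of the exon length of Tap1 and 5.8% of that of Psmb9. No source used here states whether the counting used strand, so reads from those bases cannot be told apart.

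The start sites of Tap1 and Psmb9 in RefSeq lie on opposite strands with 225 bases between them, and 275 of the 300 bases of their promoter windows are the same stretch. In the annotation that gave the gene coordinates above, Psmb9 extends across the bases between these starts. The stretch between the starts is printed because both genes called here start at its ends in RefSeq. It is read on the plus strand from the base next to the Psmb9 start to the base before the Tap1 start, and capitals mark the GC box GGGCGG or its reverse complement, searched on both strands and found in 35.7% of all windows.
Tap1 and Psmb9 (chr17:34187331-34187555, plus strand): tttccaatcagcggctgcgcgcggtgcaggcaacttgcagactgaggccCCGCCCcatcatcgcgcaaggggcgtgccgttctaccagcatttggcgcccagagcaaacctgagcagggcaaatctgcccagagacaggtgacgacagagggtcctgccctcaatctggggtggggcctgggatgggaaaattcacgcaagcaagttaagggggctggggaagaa
It holds 1 GC box and no match to the response element core or to TTCNNNGAA, which says only that these letters are not in this stretch.

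The genes next along chromosome 17 had smaller changes. Psmb8 (34197721 to 34201454), another catalytic subunit of the immunoproteasome, stood at 13.9, 23.2 and 27.8 CPM in wild type and at 34.4, 40.8 and 18.2 CPM in Atp7b-/- replicates 1 to 3. Its Atp7b-/- libraries were above wild type within each layout and overlapped across layouts (log2 fold change 0.50, SE 0.19, edgeR adjusted p = 0.272). Tap2 (34203527 to 34216321), the partner of Tap1 in the transporter, stood at 16.4, 29.8 and 28.9 CPM in wild type and at 32.2, 31.1 and 21.7 CPM in Atp7b-/- replicates 1 to 3. Its Atp7b-/- libraries too were above wild type within each layout and overlapped across layouts, and the log2 fold change was 0.21 (95% interval -0.21 to 0.62, edgeR adjusted p = 0.666). The interval of Tap2 lies below that of Tap1 (0.86 to 1.83), although the difference between the genes was not tested.

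The class I molecules did not pass the test. B2m, the invariant light chain, stood at 1866, 656 and 811 CPM in wild type replicates 1 to 3 and at 904, 1025 and 1302 CPM in Atp7b-/- replicates 1 to 3. The highest and the lowest library were both wild type (log2 fold change 0.09, 95% interval -0.48 to 0.66). The heavy chain H2-K1 stood at 831, 2017 and 1939 CPM against 1509, 1695 and 646 CPM (log2 -0.32, interval -0.77 to 0.12), and the heavy chain H2-D1 at 224, 666 and 654 CPM against 590, 618 and 253 CPM (log2 -0.03, interval -0.46 to 0.41). Both heavy chains were low in the paired-end libraries, where B2m was high. H2-K1 and H2-D1 are alike in sequence, and no source used here states how reads that map to several places were counted, so each is uncertain as a single gene. Tapbp, the loading factor, stood at 52.4, 172 and 130 CPM against 119, 108 and 39.8 CPM. Its log2 ratio was -0.40 in the paired-end pair and -0.40 in the single-end libraries (fitted log2 fold change -0.41, edgeR adjusted p = 0.377).

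**Figure D2:**
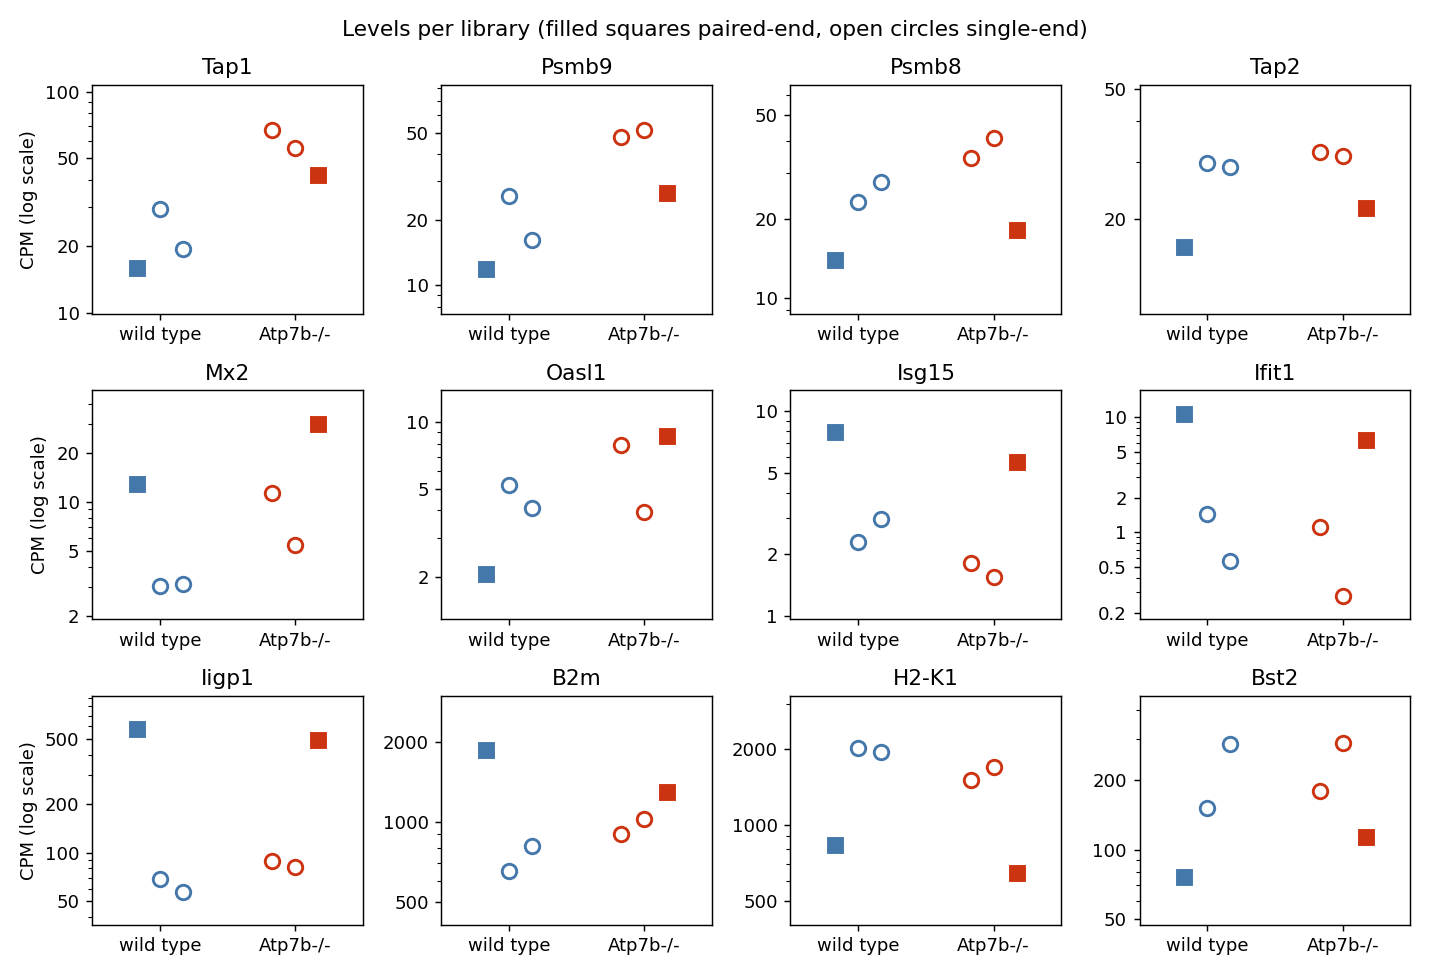
CPM of 12 genes in each library on log axes, with wild type in blue and Atp7b-/- in red, filled squares for paired-end and open circles for single-end libraries, in replicate order within a genotype. Tap1 and Psmb9 separate the genotypes, while for Iigp1, Ifit1 and Isg15 the 2 paired-end libraries lie above the 4 single-end ones.

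Markers of other liver cells were measured in the same libraries. Summed Kupffer cell and macrophage markers (12 genes) ran from 247 to 550 CPM in wild type and from 271 to 459 CPM in Atp7b-/- libraries, and dendritic cell markers (8 genes) from 9.64 to 12.4 and from 6.3 to 9.44 CPM. Endothelial markers (8 genes) ran from 194 to 539 and from 176 to 397 CPM, stellate cell and fibroblast markers (7 genes) from 250 to 495 and from 308 to 383 CPM, and biliary markers (6 genes) from 22.4 to 51.4 and from 30 to 78.1 CPM. Markers of T and NK cells (10 genes) ran from 2.78 to 4.16 and from 3.51 to 6.78 CPM, and those of B cells (7 genes) from 5 to 11.6 and from 4.61 to 8.23 CPM. Those of neutrophils (8 genes, with Ly6g at 0 counts in every library) ran from 0.595 to 2.51 and from 0.702 to 1.79 CPM. Hepatocyte markers (7 genes) lay between 83000 and 109000 CPM in wild type and between 59900 and 71200 CPM in Atp7b-/- libraries, and erythroid markers (6 genes) between 51.1 and 220 and between 224 and 319 CPM. The dendritic, hepatocyte and erythroid sums did not overlap between genotypes, but each separation rested on the most abundant gene of its list. Without Zbtb46, Alb and Alas2 the ranges overlapped (2.6 to 6.22 against 2.22 to 5.19, 29200 to 41800 against 21400 to 33000 and 28.7 to 39.1 against 37.6 to 68.5 CPM). Without Cd4, the most abundant of its list, the T and NK sums ran from 2.04 to 2.46 CPM in wild type. In Atp7b-/- libraries they then ran from 0.982 to 2.2 CPM, so the higher sums of that list there came from Cd4. Among the tested of the 79 matched markers, Cd4, Sox9 and Epcam had every Atp7b-/- library above wild type (log2 fold changes 1.52, 1.37 and 0.74, edgeR adjusted p = 0.124, 0.104 and 0.568), and Zbtb46 and Des every one below (-0.76 and -1.94, adjusted p = 0.287 and 0.526). Over all genes tested these shares were 5.23% and 3.28%. Epcam rests on 14, 8 and 2 counts in wild type and 16, 5 and 36 in Atp7b-/- replicates 1 to 3. Des was high in wild type replicate 1 alone (97.5 CPM), with a single-end log2 ratio of -0.54. The other tested biliary markers Krt19, Krt7 and Spp1 had log2 fold changes of -0.0021, -0.30 and 0.90. No marker gene was called, and the part of these markers in the changes of Tap1 and Psmb9 was not tested.

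Among the 13 antiviral effectors none was called, with Mx2 nearest to the threshold. Mx2 (ENSMUSG00000023341, chromosome 16, 97535308 to 97560900) belongs to the interferon-induced dynamin-like GTPases. The annotation used here lists it as a polymorphic pseudogene, so its transcripts need not give a working protein in these mice. Mx2 stood at 12.8, 3.06 and 3.15 CPM in wild type replicates 1 to 3 and at 11.3, 5.47 and 30.2 CPM in Atp7b-/- replicates 1 to 3. The Atp7b-/- libraries were higher within each layout, and the groups overlapped across layouts because the paired-end wild type library was high. Its log2 fold change was 1.37 (SE 0.30, 95% interval 0.68 to 2.06, edgeR adjusted p = 0.0542), with log2 ratios of 1.23 in the paired-end pair and 1.32 in the single-end libraries. DESeq2 and limma-voom called it (adjusted p = 0.00557 and 0.0486), as did edgeR without Atp7b-/- replicate 2 (0.028) or without the filter on low counts (0.000152). The adjusted p ran up to 1 over the alternatives. Mx1, its neighbour on the opposite strand, stood at 2.65, 0.17 and 0.556 CPM against 0.35, 0.701 and 1.93 CPM. Its counts were 58, 2 and 3 against 6, 5 and 56, too few for a firm statement (95% interval of the log2 fold change -1.51 to 1.51).

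The 2'-5' oligoadenylate synthetase family senses double-stranded RNA and activates RNase L, although the like proteins Oasl1 and Oasl2 are known for other antiviral roles. Oasl1 stood at 2.06, 5.18 and 4.08 CPM in wild type and at 7.87, 3.93 and 8.71 CPM in Atp7b-/- replicates 1 to 3. The paired-end libraries differed 4.24-fold, while the single-end ones overlapped (log2 fold change 0.96, SE 0.44, edgeR adjusted p = 0.373). Oas1a, Oas2 and Oasl2 had log2 fold changes of -0.34, 0.13 and -0.05 at mean wild type levels of 1.19, 1.56 and 2.34 CPM. Oas1g, a near copy of Oas1a in the same cluster on chromosome 5, had 15, 6 and 2 counts in wild type and 1, 3 and 23 in Atp7b-/- replicates 1 to 3 and was not tested.

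The other effectors had small or uncertain changes. Bst2 (tetherin), which holds budding virus at the cell surface, stood at 75.9, 152 and 286 CPM in wild type and at 179, 288 and 113 CPM in Atp7b-/- replicates 1 to 3. The ranges coincided almost entirely (log2 fold change 0.26, 95% interval -0.41 to 0.92). Rsad2 (viperin) stood at 7.86, 0.765 and 0.927 CPM against 1.86, 0.842 and 7.44 CPM, high in both paired-end libraries (log2 fold change 0.37, interval -0.58 to 1.32). Its neighbour Cmpk2, a mitochondrial nucleotide kinase, had a log2 fold change of -0.39, and the exonuclease gene Isg20, the chaperone gene Rtp4 and the apoptosis-linked Xaf1 had 0.24, -0.26 and 0.16 (edgeR adjusted p = 0.663 to 0.854).

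None of the 7 transcription factors was called, and 6 of 7 changes were negative (median log2 fold change -0.28), against 6607 of 12988 over all genes tested. The ratio was negative in both layouts for 3 of 7. Irf7, the factor that amplifies type I interferon production, stood at 16.3, 34.1 and 23.5 CPM in wild type and at 19.3, 20.9 and 11.8 CPM in Atp7b-/- replicates 1 to 3. It was lower within both layouts (log2 fold change -0.51, SE 0.21, edgeR adjusted p = 0.311). Stat2, a subunit of the type I interferon response complex, stood at 73.4, 85.7 and 72.7 CPM against 61.4, 66.8 and 67 CPM. All its Atp7b-/- libraries lay below all wild type libraries, at a log2 fold change of -0.25 (95% interval -0.65 to 0.16, edgeR adjusted p = 0.588). Tap1 and Stat2 were the members whose genotypes did not overlap, 1 in each direction of 45. Over all genes tested 5.23% had every Atp7b-/- library above and 3.28% every one below wild type.

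Irf9, which joins Stat2 on DNA, and Irf8, a factor of myeloid cells, had log2 fold changes of -0.28 and -0.44 (edgeR adjusted p = 0.556 and 0.564). Irf1, an early target of interferon gamma, stood at 19, 38.3 and 17.1 CPM in wild type and at 18.1, 15.7 and 25.9 CPM in Atp7b-/- replicates 1 to 3, with log2 ratios of 0.44 in the paired-end pair and -0.60 in the single-end libraries. Irf3, which is activated by phosphorylation in cells that sense viral nucleic acid, averaged 46.8 ± 3.72 CPM in the wild type libraries against 47.8 ± 6.08 CPM in the others (SD, n = 3 each), and Irf5 had a log2 fold change of -0.0083. The RNA sensors Ifih1 (MDA5) and Ddx58 (RIG-I) and the ubiquitin ligase Trim25, which acts on RIG-I, had log2 fold changes of 0.0031, 0.09 and -0.18, with all 3 intervals between a halving and a doubling.

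The Ifit genes encode proteins that bind foreign RNA, and none of the 3 was called. Ifit1 stood at 10.7, 1.44 and 0.556 CPM in wild type replicates 1 to 3 and at 1.11, 0.281 and 6.37 CPM in Atp7b-/- replicates 1 to 3. The paired-end libraries were the highest of each genotype, and within each layout wild type had the higher mean (log2 fold change -0.60, 95% interval -1.68 to 0.48). Ifit2 and Ifit3 had log2 fold changes of -0.64 and -0.80 (edgeR adjusted p = 0.439 and 0.406), with upper bounds of 0.12 and 0.10. Ifi35 and Ifi27 had positive changes, 0.44 and 0.37 (edgeR adjusted p = 0.435 and 0.497). Their single-end Atp7b-/- libraries were above wild type (log2 ratios 0.65 and 0.47). The paired-end libraries were nearly equal for Ifi35 (28.75 CPM in wild type, 29.1 CPM in Atp7b-/-) and close for Ifi27 (50.4 and 55.2 CPM). Ifi44 had a log2 fold change of -0.04 on 3 to 96 counts per library.

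Isg15, the ubiquitin-like modifier, stood at 7.91, 2.29 and 2.97 CPM in wild type and at 1.81, 1.54 and 5.68 CPM in Atp7b-/- replicates 1 to 3. Its Atp7b-/- libraries were lower within each layout (log2 fold change -0.55, 95% interval -1.28 to 0.17, edgeR adjusted p = 0.485). Usp18, the protease that removes Isg15 and damps receptor signalling, stood at 8.59, 5.01 and 2.04 CPM against 5.48, 6.17 and 7.44 CPM. It was higher in the single-end and lower in the paired-end Atp7b-/- libraries (log2 fold change 0.33, interval -0.50 to 1.16). Parp9 and Dtx3l, whose proteins form a complex, lie head to head on chromosome 16 and had log2 fold changes of -0.10 and 0.18; that of Parp14 was -0.11. The exons of Parp9 and Dtx3l overlap by 458 bases on opposite strands, so their counts are not fully separate.

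The 6 interferon-inducible GTPases, which act on the vacuoles of intracellular pathogens, held no call. Gbp2 stood at 3.88, 5.27 and 2.41 CPM in wild type and at 1.22, 1.68 and 3.03 CPM in Atp7b-/- replicates 1 to 3. Within each layout it was lower in Atp7b-/- libraries (log2 fold change -1.04, SE 0.44, edgeR adjusted p = 0.32). The change of Gbp3 was -0.81 on the log2 scale (edgeR adjusted p = 0.43), while the like gene Gbp7 had 0.13. Iigp1, Igtp and Irgm1 had 0.20, -0.09 and 0.01. Iigp1 stood at 578, 69.2 and 57.5 CPM in wild type replicates 1 to 3 and at 88.3, 81 and 497 CPM in Atp7b-/- replicates 1 to 3. Its large spread follows the layout and not the genotype (95% interval of the genotype change -0.28 to 0.68). Members of the Gbp and Irg families are alike in sequence and uncertain as single genes.

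The sequencing layout accompanied larger differences in this set than the genotype did. In the layout term of the same fit, 19 of 45 genes were higher and 8 lower in the paired-end libraries at an adjusted p under 0.05, against 27.2% and 25.7% of all genes tested. The median layout change was 0.57 on the log2 scale over the 45 genes and 0.03 over all genes. Ifit1 was 8.82-fold, Iigp1 7.38-fold, Rsad2 6.81-fold and Mx1 5.56-fold higher in the paired-end libraries (log2 3.14, 2.88, 2.77 and 2.48, edgeR adjusted p = 8.4e-05 to 0.0059). In 23 of the 45 genes both paired-end libraries lay above all 4 single-end ones, and in 10 they lay below, against 32.1% and 30.6% of all genes tested. Tapbp, H2-D1, H2-K1, Tap2, Bst2, Irf5, Irf7 and Irf8 were the genes called lower, while B2m and the Ifit and Irg genes were called higher. Summed Kupffer cell markers (247 and 271 CPM against 378 to 550 CPM) and endothelial markers (194 and 176 CPM against 353 to 539 CPM) were also low in the paired-end libraries. Both paired-end libraries lay below all single-end ones for 6 of the 12 single Kupffer markers and 7 of the 8 endothelial ones. Summed neutrophil (2.51 and 1.79 against 0.595 to 0.933 CPM), biliary (51.4 and 78.1 against 22.4 to 49.4 CPM) and B cell markers (11.6 and 8.23 against 4.61 to 7.86 CPM) were high there. The part of these cell types was not tested. Layout and any difference in animals or preparation between the runs cannot be told apart.

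**Figure D3:**
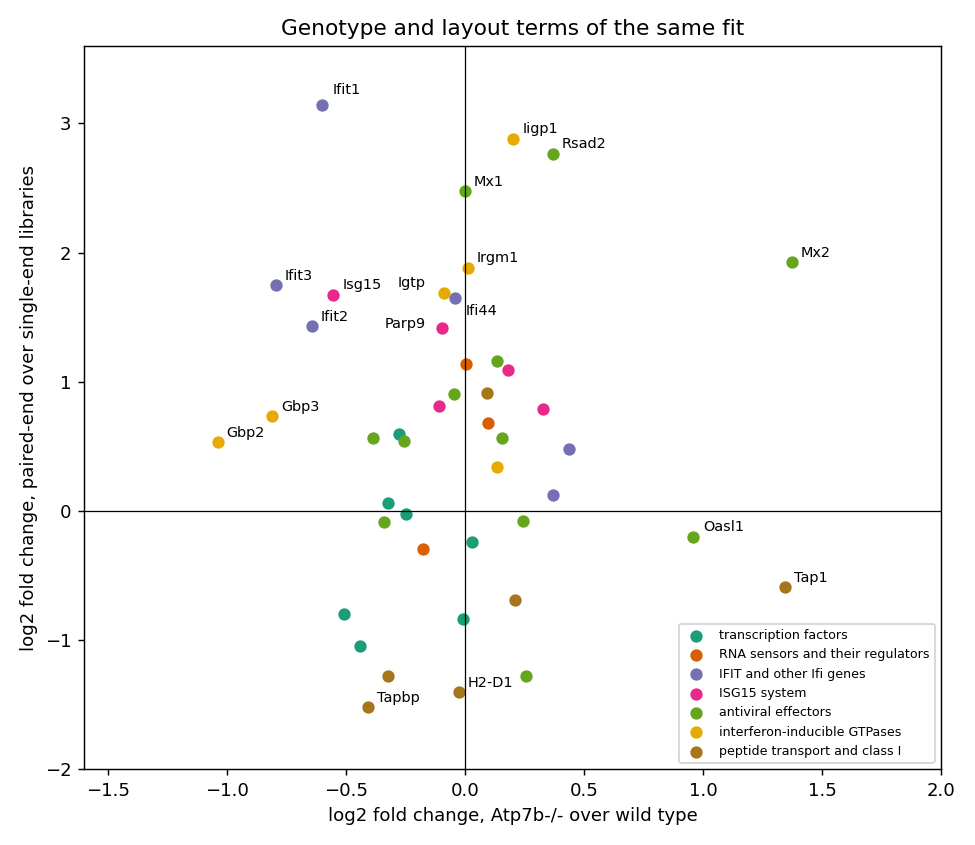
For each of the 45 tested genes, the log2 fold change between genotypes (horizontal axis) against that between layouts (vertical axis) in the same fit, coloured by role. Genotype changes lie between -1.04 and 1.37 and layout changes reach 3.14 for Ifit1; Tap1 is to the right with a layout change of -0.59.

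Genotype ratios within each layout were compared because the layouts differ this much. The log2 ratio of Atp7b-/- over wild type was positive for 19 of 45 genes in the paired-end pair and for 23 of 45 in the single-end libraries. It had the same sign in both for 25 of 45 genes (11 positive and 14 negative), and for 7549 of the 12988 genes tested. The median ratio of the 45 genes was -0.05 in the paired-end pair and 0.05 in the single-end libraries. No member differed in genotype change between the layouts by edgeR's interaction test (0 of 45 at an adjusted p under 0.05, 0 at an unadjusted p under 0.05), where 0.0154% of all genes were called. limma-voom also called 0, with 1 unadjusted p under 0.05. The error in that fit comes from single-end replicates alone, and the same term stands for labelled sex. Oasl1 had the smallest unadjusted p of the set (0.0525), with log2 ratios of 2.03 and 0.27.

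**Figure D4:**
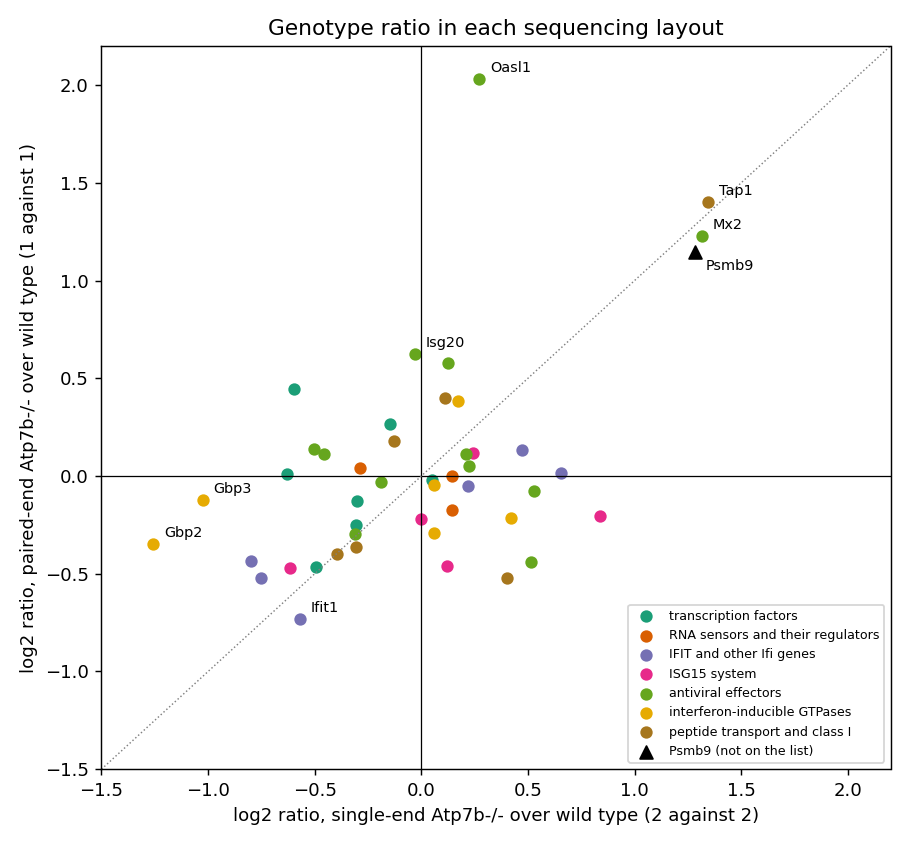
The log2 ratio of Atp7b-/- over wild type in the single-end libraries (2 against 2, horizontal axis) and in the paired-end libraries (1 against 1, vertical axis) for the 45 tested genes, with Psmb9 as a triangle and equal ratios as a dotted line. Tap1, Mx2 and Psmb9 lie at more than 1 on both axes. Oasl1 lies above 2 on the paired-end axis alone, and Gbp2 and Gbp3 lie below -1 on the single-end axis alone.

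Other genes of the pathway, from 5 lists with 102 matched genes, were tested in the same fit. Psmb9 rose, no gene was called lower, and 86 of the 87 tested were not called, which is near the 1.9% and 0.585% of all genes. Their median log2 fold change was 0.03. In 6 of the 87 every Atp7b-/- library lay above wild type and in 0 every one lay below, against 5.23% and 3.28% of all genes; the 6 were Psmb9, Samhd1, Parp12, Tor3a, Psme1 and H2-M3. Of 15 genes of interferon receptors and signalling none was called. The feedback inhibitor Socs3 stood at 12.7, 34.3 and 19.6 CPM in wild type and at 18.3, 10.7 and 4.92 CPM in Atp7b-/- replicates 1 to 3. Socs3 was lower in Atp7b-/- libraries within each layout, without a call (log2 -1.05, SE 0.30, edgeR adjusted p = 0.126; DESeq2 adjusted p = 0.0384). Of 11 genes of nucleic acid sensing none was called, the smallest p being that of the adaptor gene Mavs (log2 fold change -0.57, edgeR adjusted p = 0.212), followed by Traf3 (0.42, adjusted p = 0.451). The interferon genes Ifna1, Ifna2, Ifna4, Ifnb1, Ifnl2 and Ifnl3 had 0 counts in every library. A count of 0 was taken to allow up to 3 counts, for counting error only. That is 0.103 CPM in the deepest and 0.556 CPM in the shallowest library. Ifng had 1 count in wild type and 1 in Atp7b-/- livers.

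Of 37 tested further interferon-stimulated genes none was called, with Samhd1 at a log2 fold change of 0.66 and Ifitm2 at -0.53 (edgeR adjusted p = 0.22 and 0.257). Samhd1, which depletes nucleotides, stood at 20, 27.5 and 16.5 CPM in wild type and at 38.6, 31.7 and 31.6 CPM in Atp7b-/- replicates 1 to 3, with no overlap. In the list of the immunoproteasome and class I assembly, Psmb9 rose and 15 of 16 genes did not pass the test. In it 13 of 16 changes were positive (median 0.17), against 6381 of 12988 over all genes tested. The ratio was positive for 9 of 16 in the paired-end pair and for 13 of 16 in the single-end libraries. It was positive in both for 8 of 16. Psme1, a subunit of the proteasome activator PA28, and the class I-like gene H2-M3 had log2 fold changes of 0.42 and 0.80 (edgeR adjusted p = 0.344 and 0.399). Of 8 tested class II genes none was called, with Ctss at 0.47 (adjusted p = 0.483) and H2-DMb1 at -0.31 (adjusted p = 0.768).

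Per kb of exon, B2m and H2-K1 were the most abundant of the set in both genotypes. B2m was at 1292 CPM per kb in wild type and 1252 in Atp7b-/- livers, and H2-K1 at 543 and 437. H2-D1 (199 and 189) and Bst2 (190 and 214) came next, in opposite order in the genotypes and by less than their spread between libraries. Iigp1 (40.4 and 38.2), Tapbp (32.6 and 24.5) and Ifi27 (30 and 38.7) followed, with the mean of Iigp1 set by the paired-end libraries. B2m, H2-K1 and H2-D1 together took 57.6% to 75.5% of the CPM summed over the 46 genes in each library. Tap1 was at 3.94 CPM per kb in wild type and 10 in Atp7b-/- livers, against 6.63 and 7.5 for Tap2, so that the order of the transporter subunits differed between the genotype means. Among the lower genes were Isg15 at 5.81 and 3.98, Ifit1 at 1.59 and 0.974, and Oas1g at 0.223 and 0.181 CPM per kb.

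The changes were also set beside the promoter sequences. None of the 15 tested genes with a match to the response element core was called, and their log2 fold changes ran from -1.04 (Gbp2) to 0.37 (Rsad2) with a median of -0.087. The 20 tested genes with a window but no match had a median of -0.0447 and included Tap1. The median layout change was 0.914 in the genes with a match and -0.14 in those without. These are descriptions of small groups of genes that share regulation and libraries, with no test.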

How the data were processed

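The authors deposited raw counts per Ensembl gene for 6 libraries (build GRCm38). STAR 2.4, featureCounts and edgeR 3.8 are named, without roles, per the submitters' processing notes. No source used here states the annotation release, strand setting or treatment of multiply mapped reads and read pairs. Symbols, exons and coordinates came from GENCODE M21 (GRCm38), which named 40340 of 41388 identifiers. In R 4.3.3 with edgeR 4.0.16, genes passing filterByExpr (minimum count 10) were fitted after TMM normalization with a robust quasi-likelihood model of layout and genotype, and p-values were Benjamini-Hochberg adjusted over 12988 genes. Standard errors are the log2 fold change over the square root of F. Within-layout ratios add 0.1 to each CPM, and single-end log2 values are averaged within each genotype. DESeq2 1.42.0 and limma 3.58.1 (voom) were alternatives, beside other filters, scaling, covariates and left-out libraries. The fit was run on counts simulated from its own layout means and its own spread per gene. That checks the computation and cannot show whether the calls hold in other animals. Every pair of libraries differed beyond counting noise (chi-square per gene of 33.9 or more). p-values measure the spread between libraries, which may be technical. The genes, lists and rules were chosen with earlier results of these data known; every member is accounted for, with values for those called and, per role, for the 4 with the smallest p and the most abundant per kb, and of other pathway genes for those called and the 2 per list with the smallest p. Some genes that this rule names are not reported here. Single markers, Psme1, H2-M3, Parp12, Tor3a, the GC box and which further members get values by library were chosen after their values were seen.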

Additional observations from a re-analysis of the deposited data

How the results depend on the processing

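A gene was taken to have a direction here only where it was called. In the fit with layout and genotype, 1 member was called. It was 2 without the filter on low counts, 2 with DESeq2 and 2 with limma-voom (Tap1 and Mx2 in each). It was 0 in edgeR with genotype alone or with labelled sex in place of layout (1 unadjusted p under 0.05 in each), 0 in the single-end libraries alone (5 unadjusted) and 0 without both libraries whose labelled sex did not hold, an alternative chosen after seeing the data (9 unadjusted). Leaving out each library in turn gave 0 to 2. Calls over all genes numbered 323, against 1116 without the filter, 770 with DESeq2, 0 with genotype alone and 0 with labelled sex (545 and 381 unadjusted). They numbered 126 in the single-end libraries alone. With a library left out they numbered 119 to 323 (131 when wild type replicate 1 was omitted, 208 for Atp7b-/- replicate 1, 119 for Atp7b-/- replicate 3). When either paired-end library is omitted, the layout term fits the other, and the genotype term rests on the 4 single-end libraries. The runs without wild type replicate 1 and without Atp7b-/- replicate 3 thus repeat the single-end contrast and are not separate checks. The cause of the other differences in number was not tested. The median change of the members lay between -0.213 and 0.0405 in every alternative run. DESeq2 size factors and a minimum count of 30 kept the call of Tap1 (adjusted p = 0.012 and 0.0144). No call changed sign in any alternative run. No paired analysis was possible because the labels give no replicate numbers that the genotypes share. Depth limits Ifit1, Mx1, Oas1a, Oas1g, Oas2 and Ifi44, which had under 25 counts in at least 4 libraries.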
